A study of Sus scrofa with 40 samples.

Results

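The 10 genes described here set the size and the renewal of skeletal muscle: myostatin (MSTN), the myogenic regulatory factors MYOD1, MYOG, MYF5 and MYF6, the satellite cell gene PAX7, the fusion factor MYMK, the adhesion molecules CDH15 and NCAM1, and insulin-like growth factor 2 (IGF2). They were taken by name from the 21280 genes of the deposited count table. A name was given there for 9 of them, and the IGF2 row, which has a blank name, was identified by the NCBI gene number in its deposited description. All 10 passed the filter on low counts, which left 11713 genes to test.

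Messenger RNA of 4 meat cuts of Chalu black pigs, a pork breed, was sequenced in 40 libraries, 10 per cut. The cuts were pork belly (PB), trapezius of the neck and shoulder (TM), hamstring of the hind leg (HM) and longissimus dorsi of the back (LDM). Per the labels the animals were male, descended from 1 sire, were kept together and were fasted before slaughter. Tissue was taken on the left with fascia avoided, so breed, sex, sire and side are shared by every cut. The question in each of the 6 pairs of cuts was which genes differed, as no cut is labelled a control. The labels number the libraries of a cut 1 to 10 without tying a number to a pig, so the p-values measure the spread between these libraries, which may in part be technical.

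Myostatin is a secreted member of the TGF-beta family that muscle fibres make and that restrains muscle growth through activin receptors and SMAD proteins. PAX7 marks the satellite cells, the stem cells that lie beside each fibre. On activation these cells switch on MYF5 and MYOD1, leave the cycle with MYOG and fuse through MYMK, while MYF6 is the regulatory factor that adult fibres keep. IGF2 is a growth factor of fetal and adult muscle, and a regulatory variant near it is known in pigs for its effect on lean mass.

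The library totals lay between 12305913 and 17735722 counts. The summed level of the 11 skeletal muscle identity genes in the table, among them ACTA1 and CKM, ran from 165861 to 222278 CPM in PB, from 109008 to 232344 in TM, from 104967 to 219539 in HM and from 128170 to 222251 in LDM, so each library held muscle. CPM (counts relative to the library total) are given here after scaling of the totals by edgeR's TMM factors. Mitochondrially encoded genes took 12.5% ± 1.96 of counts in PB, 7.53% ± 1.80 in TM, 9.12% ± 1.53 in HM and 4.97% ± 0.827 in LDM (SD, n = 10 each). Library PB1 is titled as pork belly while its tissue field names the longissimus. By the genes that differed among the cuts in these data, 4 libraries lay nearer to the mean of another cut than to their own: TM3 to HM, TM6 to PB, TM7 to LDM and HM9 to LDM. PB1 lay nearest to PB. Calls printed here that are lost without these 4 libraries, and calls of the 10 genes that are gained, are given with both values.

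In the deposited coordinates (build Sscrofa11.1) MSTN spans 94620269 to 94628546 on chromosome 15, minus strand, and IGF2 spans 1469132 to 1496442 on chromosome 2, minus strand. MYF5 (100752890 to 100755494) and MYF6 (100762910 to 100765704) are neighbours on the minus strand of chromosome 5. MYOD1 lies on chromosome 2 at 41415735 to 41425234, MYOG on chromosome 9 at 113782469 to 113785362 and MYMK on chromosome 1 at 273101674 to 273111727, all on the minus strand. PAX7 spans 77161097 to 77267415 on the plus strand of chromosome 6, CDH15 spans 636350 to 652165 on the minus strand of the same chromosome, and NCAM1 spans 40628750 to 40960608 on the plus strand of chromosome 9. The MSTN model overlaps that of C2orf88 on the opposite strand, and no source used here says whether the counting kept strands apart, so reads of that overlap cannot be told apart. C2orf88 averaged 1.93 CPM in PB, 1.44 in TM, 1.17 in HM and 0.332 in LDM, with its highest mean in PB, as for MSTN below. The part of shared reads in the MSTN counts was not tested.

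Per length, MYF6 and MYOG were the most abundant of the 10 genes and MYMK and MSTN the scarcest. In the authors' FPKM (counts scaled by gene length and library total), the level averaged over 40 libraries was 191 ± 91.6 for MYF6 and 128 ± 94.1 for MYOG, followed by 13.6 ± 4.57 for IGF2 and 6.50 ± 2.27 for CDH15 (SD, n = 40). The FPKM level was 2.40 ± 1.76 for MYOD1, 1.68 ± 0.800 for MYF5, 1.29 ± 0.807 for NCAM1 and 1.20 ± 0.480 for PAX7. MYMK stood at 0.559 ± 0.476 FPKM and MSTN at 0.383 ± 0.337 FPKM. The MYOD1 level is uncertain on this scale, since the deposited gene model is 8745 bases long and the RefSeq gene of that name spans 1715. Where the reads fell in the model was not examined. The models of MYOG and MYF6 also span more than their RefSeq genes, 2894 against 2080 bases and 2795 against 1854. The MSTN model spans 8278 bases and its RefSeq gene 4915, so the order of MSTN and MYMK rests on an uncertain length. MSTN rested on 1028 counts in all libraries together and MYMK on 418, against 171296 for MYF6.

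Any difference among the 4 cuts was found by the F test of edgeR's quasi-likelihood fit for 6 of the 10 genes, against 57.2% of all genes tested (Benjamini-Hochberg adjusted p under 0.05). The 6 were IGF2 (adjusted p = 5.87e-06), MSTN (5.06e-05), CDH15 (0.00016), MYMK (0.00256), NCAM1 (0.014) and MYOG (0.0224). MYF6 had an adjusted p of 0.0547, MYOD1 0.187, PAX7 0.205 and MYF5 0.217. The share of the 10 that passed is thus near the background share, and the description below is of which genes differed, where and by how much.

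Pork belly stood apart from the trapezius in 4 of the 10 genes: MSTN and MYF6 were higher in PB, MYMK and IGF2 lower (23.1% of all genes passed in this pair, 13.4% higher and 9.69% lower). PB and the hamstring differed in 6 of 10 (27.6% of all genes, 13.5% higher and 14.1% lower), with MSTN and CDH15 higher in PB and MYOG, MYMK, NCAM1 and IGF2 lower. PB and the longissimus differed in 2 of 10, MYMK and NCAM1, both lower in PB (41.7% of all genes, 20.5% higher and 21.2% lower). TM and HM differed in CDH15 alone among the 10, higher in TM (0.768% of all genes, 0.41% higher and 0.359% lower). TM and LDM differed in MSTN, lower in TM, and IGF2, higher in TM (24.7% of all genes, 11.3% higher and 13.4% lower). HM and LDM differed in MYOG and IGF2, higher in HM, and CDH15, lower in HM (32.5% of all genes, 16.5% higher and 16% lower). Of 60 results, 10 genes in 6 pairs, 18 passed, and 10 of these passed with each library left out in turn and under each alternative listed under processing that gave a value. For MYMK in PB over TM, 1 of these 10, the fit of that pair alone gave none, as the gene did not pass its filter. The same held for MYMK in PB over HM and in PB over LDM. The ranges of CPM overlapped in each pair for all 10 genes except for MSTN in PB and TM. Such separated ranges were seen for 2.37% of all genes tested in PB and TM, and for 3.09% in PB and HM, 4.92% in PB and LDM, 0.111% in TM and HM, 1.11% in TM and LDM and 1.31% in HM and LDM.

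**Figure D1:**
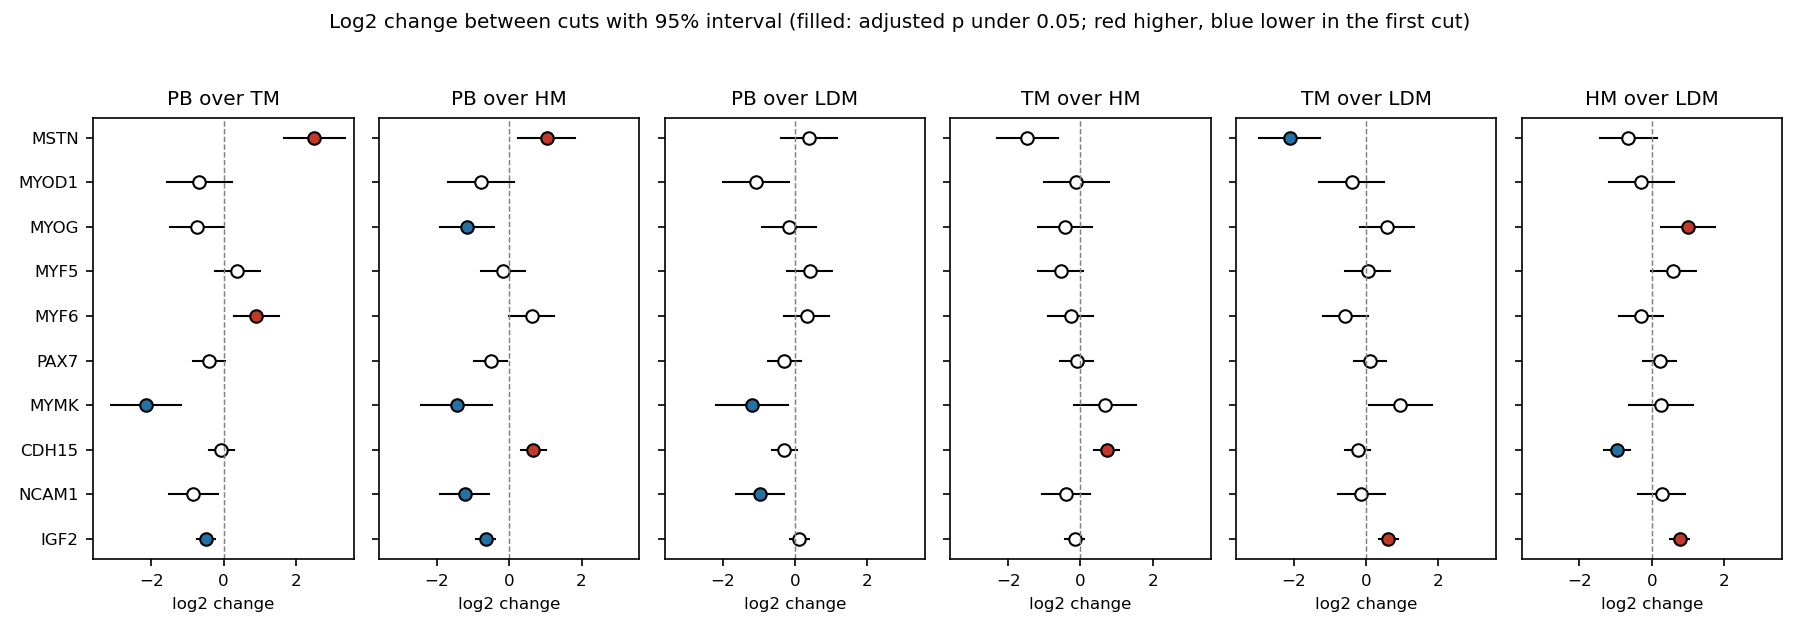
Log2 change (x axis) of each of the 10 genes (rows) in the 6 pairs of cuts (panels), with its 95% interval from edgeR's fit of 40 libraries. Filled circles are the 18 results with an adjusted p under 0.05, red where the first cut of the pair is higher and blue where it is lower. MSTN has the widest swing, 2.52 in PB over TM and -2.12 in TM over LDM.

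Myostatin was highest in PB and lowest in TM. Its lowest, median and highest library had 1.16, 2.96 and 6.60 CPM in PB, 0.178, 0.562 and 0.811 CPM in TM, 0.460, 1.29 and 2.75 CPM in HM, and 0.485, 1.32 and 7.66 CPM in LDM. Every PB library was thus above every TM library, while HM and LDM overlapped with both. The mean was 2.96 ± 1.58 CPM in PB, 0.511 ± 0.214 in TM, 1.43 ± 0.634 in HM and 2.22 ± 2.30 in LDM (SD, n = 10 each). The LDM mean leaned on LDM2 with 7.66 and a second library with 4.70 CPM, and without LDM2 it was 1.62 ± 1.36.

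MSTN was higher in PB than in TM by 2.52 on the log2 scale (SE 0.42, adjusted p = 3.14e-05) and lower in TM than in LDM, with a log2 change of -2.12 (SE 0.42, adjusted p = 0.000286). Both differences passed with every library left out in turn. PB was also higher than HM by 1.05 (SE 0.39, adjusted p = 0.041), but this call was lost on leaving out any of 11 libraries, PB1 among them (adjusted p = 0.0534 without PB1), and with no filter on low counts (adjusted p = 0.0539). In TM over HM the log2 change was -1.47 (SE 0.42, adjusted p = 0.0888), which passed with DESeq2 (adjusted p = 0.0322), in the fit of that pair alone (0.0228) and without LDM2 (0.0454). PB and LDM, the next pair in the order of means, were not separated: 0.40 with a 95% interval of -0.37 to 1.17. They differed by 0.85 with an adjusted p of 0.0491 once LDM2 was left out. In bulk tissue fewer cells of a type and less RNA per cell cannot be told apart, here and in the results below.

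Of the 23 other genes of myostatin and activin signalling, 20 were tested and 11 differed among the cuts, where 57.2% of all genes tested did. For this list and those below, the shares of all genes that passed in each pair of cuts are given above. In PB over TM 1 was higher and 3 lower (median log2 -0.05, -0.06 over all genes), and in PB over LDM 3 were higher and 4 lower (median 0.04, -0.02 over all genes). In HM over LDM 5 were higher and 3 lower (median 0.21, 0.08 over all genes), and none passed in TM over HM. GDF11, the closest relative of myostatin and a ligand of the same receptors, was lower in PB than in each other cut: 0.478 ± 0.228 CPM in PB, 1.08 ± 0.301 in TM, 1.37 ± 0.534 in HM and 1.52 ± 0.660 in LDM (log2 -1.16 against TM, -1.50 against HM and -1.65 against LDM). In PB the mean of MSTN was thus the highest of the 4 cuts and that of GDF11 the lowest, though MSTN did not differ between PB and LDM (adjusted p = 0.42). GDF11 rested on 63 counts in PB.

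WFIKKN2, which encodes a secreted protein that binds and blocks myostatin, showed the widest span of the list. It averaged 9.14 ± 7.94 CPM in PB, 8.83 ± 7.80 in TM, 2.49 ± 3.33 in HM and 26.5 ± 12 in LDM. The log2 change in HM over LDM was -3.41 (SE 0.60, adjusted p = 6.09e-05), and the ranges of these cuts were 0.467 to 11 and 3.70 to 42.3 CPM. PB lay above HM (1.88, adjusted p = 0.0139) and below LDM (-1.53, adjusted p = 0.0242). TM lay below LDM as well (-1.58, adjusted p = 0.0316), a call lost without any of 7 libraries and without the 4 nearest another cut (-1.51, adjusted p = 0.0509), where TM over HM was 2.61 (adjusted p = 0.0221).

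On the intracellular side, SMAD7, an inhibitory SMAD, was lower in LDM (10.0 CPM in PB, 11.7 in TM, 14.9 in HM, 5.07 in LDM), and all 3 contrasts with LDM passed. SMURF1, a ubiquitin ligase that acts on SMAD proteins, was lower in PB, at 5.07 CPM, than in TM, at 7.78, and in HM, at 9.01. LDM, at 5.85 CPM, did not differ from PB in SMURF1 (adjusted p = 0.271) and was likewise lower than HM (0.62 in HM over LDM, adjusted p = 0.00122). The receptor ACVR2B, which myostatin binds, had 10.5 ± 5.06 CPM in PB, 10.5 ± 4.54 in TM, 9.23 ± 2.96 in HM and 10.1 ± 3.14 in LDM, with an adjusted p of 0.886 among the cuts. Follistatin (FST), a secreted antagonist, averaged 1.32 ± 0.649, 1.57 ± 0.717, 1.98 ± 1.88 and 2.29 ± 1.35 CPM in PB, TM, HM and LDM (adjusted p = 0.309).

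**Figure D2:**
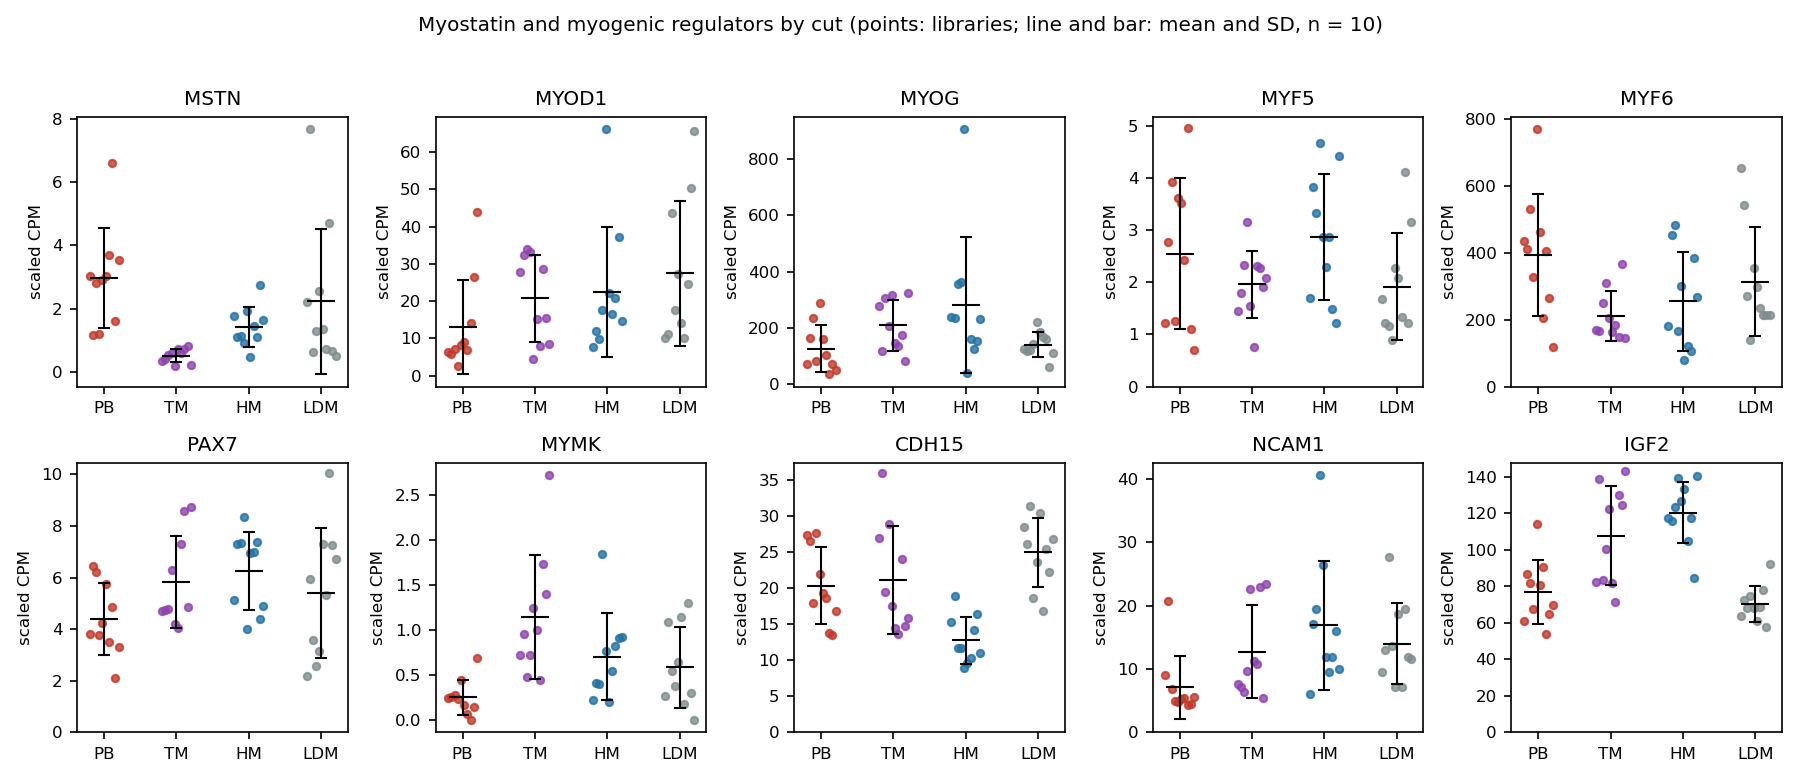
Level of each of the 10 genes in scaled CPM (y axis, linear) in the 10 libraries of each cut (x axis, PB, TM, HM, LDM). Points are libraries and the line with its bar is the mean with the SD. MSTN in PB, at 1.16 CPM or more, lies above all TM libraries, at 0.811 CPM or less, and single libraries stand far up for MYOG in HM (906 CPM) and NCAM1 in PB (20.8 CPM).

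Among the myogenic regulatory factors, MYOG was lower in PB than in HM, MYF6 was higher in PB than in TM, and MYOD1 and MYF5 passed in no pair, though each passed in some under other settings. MYOG, the factor of terminal differentiation, had 33.9, 91.4 and 288 CPM in the lowest, median and highest PB library, 80.7, 189 and 325 in TM, 37.3, 234 and 906 in HM, and 59.3, 133 and 219 in LDM. All ranges overlapped, and HM5 with 906 CPM stood above the next HM library, at 364 CPM. Means were 125 ± 83.9 CPM in PB, 208 ± 91.1 in TM, 280 ± 241 in HM and 140 ± 44.8 in LDM (SD, n = 10 each), and that of HM was 211 ± 106 without HM5.

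The log2 change of MYOG was -1.17 in PB over HM (SE 0.37, adjusted p = 0.0177) and 1.0 in HM over LDM (SE 0.37, adjusted p = 0.0363). Without HM5 the first was -0.76 with an adjusted p of 0.0996, and any difference among the cuts then had an adjusted p of 0.0976. In the fit of PB and HM alone the first had an adjusted p of 0.0676. The contrast of HM over LDM was likewise lost without HM5, with a log2 change of 0.59 and an adjusted p of 0.189, and without any of 6 other libraries. The neighbours in the order of means, PB and LDM, TM and HM, and LDM and TM, did not differ beyond their spread.

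MYF6, also called MRF4, had its highest mean in PB, where that of MYOG was lowest, but no pair of cuts passed for both genes. The lowest, median and highest library had 117, 407 and 770 CPM in PB, 145, 176 and 365 in TM, 78.9, 224 and 483 in HM, and 140, 252 and 653 in LDM. PB libraries were mostly above TM libraries, with overlap. Means were 393 ± 183 CPM in PB, 210 ± 74.8 in TM, 254 ± 147 in HM and 313 ± 163 in LDM. PB exceeded TM by 0.90 on the log2 scale (SE 0.31, adjusted p = 0.0293), which was lost without PB5, TM2 or TM10, and without the 4 libraries nearest another cut (0.87, adjusted p = 0.0632). The other 5 contrasts of MYF6 lay between -0.58 in TM over LDM (adjusted p = 0.166) and 0.63 in PB over HM (adjusted p = 0.124).

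MYOD1, the factor that commits satellite cells to muscle, averaged 13.1 ± 12.7 CPM in PB, 20.8 ± 11.6 in TM, 22.4 ± 17.4 in HM and 27.5 ± 19.4 in LDM. Its spread within cuts was wide: the range was 2.52 to 43.9 CPM in PB, 4.38 to 34.1 in TM, 7.57 to 66.1 in HM and 10.1 to 65.6 in LDM. In the fit its dispersion, the squared spread between libraries of a cut beyond counting noise, exceeded that of 97.8% of the 1000 genes nearest to it in abundance. The largest contrast, PB over LDM, was -1.07 (SE 0.45, adjusted p = 0.053), with a 95% interval of -1.98 to -0.16. It passed once any of 7 libraries was left out, PB10 among them, the PB library with 43.9 CPM (lowest adjusted p = 0.00586). It passed as well with DESeq2 (adjusted p = 0.0383), limma-voom (0.0192) and the library number as a block (0.0349). PB over TM passed with limma-voom (-1.12, adjusted p = 0.0454) and PB over HM without PB10 (adjusted p = 0.0365).

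MYF5, an early factor of satellite cells, averaged 2.55 ± 1.45 CPM in PB, 1.96 ± 0.639 in TM, 2.87 ± 1.21 in HM and 1.91 ± 1.03 in LDM. The 6 log2 changes lay between -0.55 in TM over HM and 0.59 in HM over LDM (adjusted p = 0.464 and 0.136). HM over LDM passed with limma-voom (0.74, adjusted p = 0.0389) and without LDM8 (adjusted p = 0.0401).

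**Figure D3:**
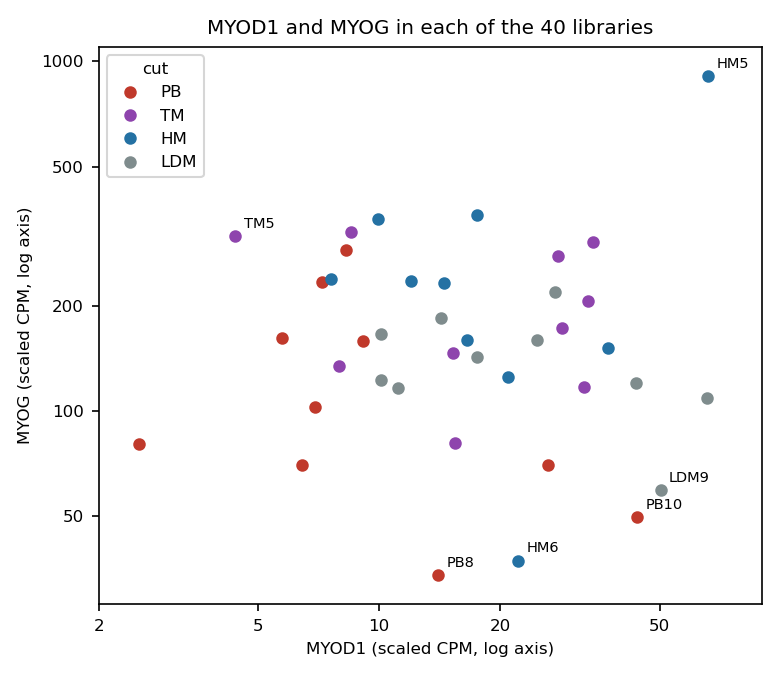
MYOD1 (x axis) and MYOG (y axis) in scaled CPM, both axes logarithmic, in each of the 40 libraries coloured by cut. HM5 is at the top right with 66.1 CPM of MYOD1 and 906 CPM of MYOG, and PB10 and LDM9 have high MYOD1 with low MYOG. The other libraries form no diagonal.

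The plot of MYOD1 and MYOG shows that these factors did not go together from library to library. The count of MYOG over that of MYOD1 ranged from 1.13 in PB10 to 34.7 in PB5 within PB, from 3.61 to 72.1 in TM, from 1.68 to 35.8 in HM and from 1.18 to 16.3 in LDM. With the cut means taken out, Pearson's r of their log2 CPM over 40 libraries was -0.18, and it was negative in 3 of 4 cuts. This is a description of libraries that share a depth and a scaling.

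Partners of the myogenic factors numbered 19 beside the members, 18 of them tested, and 12 differed among the cuts (57.2% of all genes tested did). In PB over HM 3 were higher and 5 lower (median log2 0.12, -0.05 over all genes), and in HM over LDM 4 were higher and 4 lower (median -0.01, 0.08 over all genes). MEF2A, a transcription factor that works with the myogenic factors, averaged 172 ± 49.9 CPM in PB, 116 ± 52.3 in TM, 97.8 ± 24.4 in HM and 220 ± 60.8 in LDM. It was higher in PB than in HM (0.81, adjusted p = 0.00229) and lower in HM than in LDM (-1.17, adjusted p = 4.33e-05). The related MEF2C was higher in PB, at 226 ± 87.5 CPM, than in TM, at 123 ± 34.5, and in LDM, at 135 ± 51.9 (log2 0.87 and 0.74). EYA4, a transcriptional cofactor, averaged 131 CPM in PB, 80.3 in TM, 72.1 in HM and 176 in LDM, and TCF4, an E protein, 11.2 CPM in PB, 8.25 in TM, 10.1 in HM and 5.16 in LDM.

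Genes linked to denervation and regeneration were listed as well, and those that passed in HM over LDM, where MYOG was higher in HM, went both ways. Of 17 such genes beside the members, 12 were tested and 7 differed among the cuts, where 57.2% of all genes tested did. In HM over LDM 3 were higher and 3 lower (16.5% and 16% of all genes). The developmental myosin MYH8 averaged 21.4 ± 23.1 CPM in PB, 7.40 ± 3.15 in TM, 14.9 ± 6.91 in HM and 33.7 ± 11.7 in LDM (log2 1.53 in PB over TM and -2.18 in TM over LDM). Embryonic MYH3 averaged 35.1 ± 35.7 CPM in PB, 17.2 ± 10.9 in TM, 30.4 ± 26.8 in HM and 59.0 ± 21.7 in LDM, and its contrast of TM over LDM passed (-1.77, adjusted p = 0.00225), and that of HM over LDM with the library number as a block (-1.11, adjusted p = 0.0132). Both were thus lowest in TM, as was MSTN. The acetylcholine receptor subunit CHRNA1 had the opposite pattern in LDM, with 11.2 ± 5.73 CPM in PB, 10.4 ± 3.62 in TM, 13.2 ± 8.71 in HM and 4.11 ± 2.47 in LDM, and all 3 contrasts with LDM passed. CHRNE, the adult subunit, had 5.82 CPM in PB, 10.7 in TM, 11.9 in HM and 4.95 in LDM. It passed in the pairs where MYOG passed, PB over HM (-1.02, adjusted p = 0.0215, lost without HM1) and HM over LDM (1.26, adjusted p = 0.00454). TM over LDM passed as well for CHRNE (1.11, adjusted p = 0.0147), but not for MYOG. Cardiac actin ACTC1, which immature fibres use, spread from 4.4 to 517 CPM in PB, from 2.94 to 297 in TM, from 11.9 to 1044 in HM and from 0.789 to 45.7 in LDM. Its contrast of HM over LDM passed (3.93, adjusted p = 0.00194), while that of MYH8 was lower in HM (-1.18, adjusted p = 0.00986).

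PAX7 did not pass the test among the cuts (adjusted p = 0.205). Its lowest, median and highest library had 2.12, 4.03 and 6.45 CPM in PB, 4.06, 4.82 and 8.72 in TM, 4.01, 6.96 and 8.37 in HM, and 2.21, 5.64 and 10.0 in LDM. Means were 4.41 ± 1.39 CPM in PB, 5.83 ± 1.78 in TM, 6.27 ± 1.51 in HM and 5.41 ± 2.53 in LDM. The largest contrast was -0.51 in PB over HM (SE 0.23, adjusted p = 0.0888), with a 95% interval of -0.96 to -0.05, and it passed with limma-voom (-0.59, adjusted p = 0.0434).

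PAX3, the paralog of PAX7 that some satellite cells of the adult also express, was too scarce to pass the filter but was spread unevenly. The 10 libraries together had 77 counts in PB, 78 in TM, 3 in HM and 21 in LDM, and 1, 1, 7 and 4 libraries of these cuts had none. It averaged 0.597 ± 0.451 CPM in PB, 0.473 ± 0.406 in TM, 0.0189 ± 0.0309 in HM and 0.137 ± 0.151 in LDM. Counts scaled to library totals gave a ratio of 29.9 in PB over HM (95% exact binomial interval 9.87 to 148), 24.0 in TM over HM (7.91 to 119) and 0.142 in HM over LDM (0.0272 to 0.476), intervals that cover counting error only. In the same fit with no filter, a setting chosen after these values were seen, the adjusted p was 6.15e-05 in PB over HM, 0.00316 in TM over HM and 0.0389 in HM over LDM. PAX7, by contrast, had its highest mean in HM.

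Beside PAX7 and MYF5, 18 satellite cell genes were listed, of which 15 were tested and 9 differed among the cuts (57.2% of all genes tested did). In PB over TM 2 were higher and 5 lower (median log2 -0.26, -0.06 over all genes), and in PB over HM 1 was higher and 6 lower (median -0.26, -0.05 over all genes). In HM over LDM 5 were higher and none lower (median 0.29, 0.08 over all genes). MET, the receptor of hepatocyte growth factor, was higher in PB than in each other cut: 15.1 ± 12.2 CPM in PB, 4.41 ± 2.08 in TM, 5.51 ± 2.08 in HM and 4.47 ± 2.11 in LDM (log2 1.77, 1.45 and 1.75). PB8 had 48.2 CPM of MET and the next PB library 15.5, and each of these calls held without PB8.

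HEYL, a Notch target, averaged 12.3 CPM in PB, 20.5 in TM, 20.5 in HM and 11 in LDM, and the receptor NOTCH3 25.5 CPM in PB, 47.5 in TM, 52.2 in HM and 34.2 in LDM. Syndecan SDC3 had 8.19 CPM in PB, 13.8 in TM, 14.3 in HM and 9.23 in LDM, so these 3 genes were lower in PB than in TM and HM. Cells of the vessel wall also express HEYL and NOTCH3, and smooth muscle and endothelial markers moved with them in some pairs of cuts. In PB over TM only 1 gene of each of these lists was lower and none higher. In TM over LDM 1 smooth muscle gene and 6 endothelial genes were higher. The smooth muscle list includes RGS5, with 104 CPM in PB, 89.1 in TM, 108 in HM and 49.2 in LDM. Of the 5 smooth muscle genes 4 were lower in PB than in HM and 5 higher in HM than in LDM, with a summed level of 215 to 785 CPM in PB, 398 to 1669 in TM, 491 to 5491 in HM and 305 to 755 in LDM. Of the 6 endothelial genes 3 were lower in PB than in HM and 5 higher in HM than in LDM, with a summed level of 262 to 691 CPM in PB, 281 to 765 in TM, 346 to 907 in HM and 281 to 430 in LDM. No gene of these lists was at 0 in a whole cut, and their part in the satellite cell list was not tested.

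MYMK, the membrane protein through which myoblasts fuse, was lower in PB than in TM and HM. It was scarce, with 33 counts over the 10 libraries of PB, 188 in TM, 107 in HM and 90 in LDM. In the fits of PB with TM, HM or LDM alone MYMK did not pass the filter on low counts. Its 3 contrasts with PB thus rest on fits of all 4 cuts. The lowest, median and highest library had 0, 0.240 and 0.694 CPM in PB, 0.442, 0.981 and 2.71 in TM, 0.204, 0.655 and 1.84 in HM, and 0, 0.464 and 1.30 in LDM. PB libraries were low, with overlap with each other cut, and the means were 0.254 ± 0.196 CPM in PB, 1.14 ± 0.685 in TM, 0.706 ± 0.482 in HM and 0.586 ± 0.449 in LDM. The log2 change was -2.14 in PB over TM (SE 0.48, adjusted p = 0.0011), -1.45 in PB over HM (SE 0.49, adjusted p = 0.0228) and -1.19 in PB over LDM (SE 0.49, adjusted p = 0.0476). The first held with each library left out. The second was lost without HM4 (adjusted p = 0.083), and the third without any of 29 of the 40 libraries, PB1 among them (adjusted p = 0.0617), and without the 4 nearest another cut (-1.17, adjusted p = 0.0535). TM over LDM passed with limma-voom (1.07, adjusted p = 0.0289).

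CDH15, or M-cadherin, which holds satellite cells to their fibre, was lowest in HM. Its lowest, median and highest library had 13.5, 19 and 27.7 CPM in PB, 13.6, 18.6 and 36.0 in TM, 8.90, 11.7 and 18.9 in HM, and 16.8, 25.8 and 31.4 in LDM. HM libraries were low, and their range met that of LDM in 16.8 to 18.9 CPM. Means were 20.4 ± 5.34 CPM in PB, 21.2 ± 7.52 in TM, 12.8 ± 3.26 in HM and 25.0 ± 4.76 in LDM. PB exceeded HM by 0.67 on the log2 scale (SE 0.17, adjusted p = 0.0032) and HM lay below LDM by a log2 change of -0.96 (SE 0.17, adjusted p = 6.61e-05), both with each library left out too. TM exceeded HM by 0.73 (SE 0.17, adjusted p = 0.0265), but not in the fit of that pair alone (adjusted p = 0.0673) or without TM1, TM2, TM4, HM5 or HM7. PB, TM and LDM did not differ from each other beyond their spread.

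NCAM1, an adhesion molecule of satellite cells, immature fibres, nerve and Schwann cells, was lower in PB than in HM and LDM. The lowest, median and highest library had 4.29, 5.38 and 20.8 CPM in PB, 5.38, 10.3 and 23.4 in TM, 6.01, 13.9 and 40.6 in HM, and 7.20, 12.5 and 27.7 in LDM. PB2 with 20.8 CPM stood apart from the other PB libraries, which had 9.04 CPM or less. Means were 7.15 ± 4.98 CPM in PB, 12.8 ± 7.33 in TM, 16.9 ± 10.2 in HM and 14 ± 6.36 in LDM, with 5.64 ± 1.48 in PB without PB2. The log2 change was -1.23 in PB over HM (SE 0.33, adjusted p = 0.00478), -0.96 in PB over LDM (SE 0.33, adjusted p = 0.0183) and -0.83 in PB over TM (SE 0.33, adjusted p = 0.0631). The second was lost without LDM3 (adjusted p = 0.0525) and with limma-voom (adjusted p = 0.056), and the third passed without PB2 (adjusted p = 0.0055) or TM9, with upper-quartile scaling (adjusted p = 0.0466) and without the 4 libraries nearest another cut (-0.97, adjusted p = 0.0433).

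Schwann cell markers moved with NCAM1 only in part, with the most calls in PB over TM, where NCAM1 itself did not pass. Of the 6 tested beside it, 4 were lower in PB than in TM, 2 than in HM and 2 than in LDM, and none was higher. Those lower than in LDM were MBP and PRX. Against HM they were PMP22, a call lost without any of 22 single libraries, and SOX10, lost without HM6 and with limma-voom (adjusted p = 0.371). Their summed level, NCAM1 included, was 77.5 to 151 CPM in PB, 93.3 to 335 in TM, 107 to 283 in HM and 142 to 279 in LDM, and none of them was at 0 in a whole cut. SOX10, the transcription factor that defines these cells, had 0.659 ± 0.327 CPM in PB, 1.87 ± 1.02 in TM, 1.87 ± 1.44 in HM and 1.14 ± 0.640 in LDM. Its call in PB over TM was lost without the 4 libraries nearest another cut (-1.21, adjusted p = 0.0702) and with limma-voom (-1.60, adjusted p = 0.0714). The myelin gene MBP had 41.3 CPM in PB, 40.3 in TM, 38.4 in HM and 105 in LDM. The part of these cells in the NCAM1 difference was not tested.

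Of 15 other genes of fusion and cell adhesion, 12 were tested and 9 differed among the cuts (57.2% of all genes tested did). In PB over TM none was higher and 1 lower, in PB over HM none was higher and 3 lower, and in HM over LDM 5 were higher and 2 lower (median log2 0.40, 0.08 over all genes). CTNNB1, the catenin that cadherins bind, had 112 ± 7.36 CPM in PB, 123 ± 8.10 in TM, 131 ± 11.7 in HM and 138 ± 12.6 in LDM, a narrow range in which PB over LDM was -0.30 (adjusted p = 0.000415). BOC, a co-receptor in myoblast contacts, averaged 19 ± 21.7 CPM in PB, 11.7 ± 3.58 in TM, 12.2 ± 4.05 in HM and 8.09 ± 2.14 in LDM. PB8 alone had 78.3 CPM of BOC. JAM2, an adhesion molecule that endothelium also expresses, had 4.62 CPM in PB, 5.70 in TM, 7.47 in HM and 4.35 in LDM.

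IGF2 separated the cuts into 2 pairs, with higher levels in TM and HM than in PB and LDM. Its lowest, median and highest library had 53.8, 75.1 and 114 CPM in PB, 71.2, 112 and 143 in TM, 84.5, 121 and 141 in HM, and 57.6, 68.4 and 92.4 in LDM. All ranges overlapped, although in HM the lowest library, HM9, was 1 of the 4 that lay nearest to another cut, and the next had 105 CPM. Means were 77.0 ± 17.6 CPM in PB, 108 ± 26.9 in TM, 120 ± 16.9 in HM and 70.5 ± 9.92 in LDM.

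The log2 change of IGF2 was -0.49 in PB over TM (SE 0.13, adjusted p = 0.00525), -0.65 in PB over HM (SE 0.13, adjusted p = 0.000249), 0.61 in TM over LDM (SE 0.13, adjusted p = 0.00053) and 0.77 in HM over LDM (SE 0.13, adjusted p = 2.92e-05). All 4 passed under every alternative and with each library left out. Within PB and LDM and within TM and HM the changes were 0.13 in PB over LDM (95% interval -0.13 to 0.39) and -0.16 in TM over HM (-0.42 to 0.10). Endothelial markers moved with IGF2 in part. Of the 6, 1 was lower in PB than in TM and 3 lower in PB than in HM, 6 were higher in TM than in LDM and 5 higher in HM than in LDM. In PB over LDM, where IGF2 did not pass, EMCN was higher (0.78, adjusted p = 0.000215). It had 14.3 CPM in PB, 13.6 in TM, 14.9 in HM and 8.33 in LDM. PECAM1, which defines this cell type, had 148 CPM in PB, 223 in TM, 265 in HM and 147 in LDM, and CDH5 had 74.6, 101, 138 and 65.5 CPM in PB, TM, HM and LDM. The part of these cells in the IGF2 levels was not tested. With a biological coefficient of variation of 0.21 IGF2 was the steadiest of the 10 genes in the fit, against 0.668 for MYOD1.

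Of 22 other genes of the insulin-like growth factor system, 16 were tested and 12 differed among the cuts (57.2% of all genes tested did). In TM over LDM 6 were higher and 3 lower (median log2 0.27, 0.04 over all genes) and in HM over LDM 5 were higher and 3 lower (median 0.25, 0.08 over all genes). IGF1, the other ligand, was scarce, with 0.904 ± 0.440 CPM in PB, 0.843 ± 0.441 in TM, 0.801 ± 0.442 in HM and 0.369 ± 0.223 in LDM, and all 3 contrasts with LDM passed (log2 1.29, 1.19 and 1.11). That of TM was lost without TM3 and without the 4 libraries nearest another cut (0.82, adjusted p = 0.15), and that of HM without any of HM2, HM5, LDM5 and LDM7. PB was thus on the high side for IGF1 and on the low side for IGF2. The receptor IGF1R had 28.7 ± 10.7 CPM in PB, 33.5 ± 7.59 in TM, 43.2 ± 12 in HM and 30.2 ± 7.93 in LDM, and was lower in PB than in HM (-0.59, adjusted p = 0.0142). It was also higher in HM than in LDM (0.52, adjusted p = 0.0274), a call lost without HM5, LDM7 or LDM9.

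IGF2R, which clears IGF2 from the cell surface, ran against its ligand between HM and LDM: 166 ± 41.7 CPM in PB, 192 ± 52.3 in TM, 147 ± 24.1 in HM and 253 ± 60.8 in LDM, with a log2 change of -0.78 in HM over LDM (adjusted p = 0.000159). The binding protein IGFBP7 averaged 48.6 ± 11 CPM in PB, 64.3 ± 16.1 in TM, 81.4 ± 25.5 in HM and 35.4 ± 5.66 in LDM, and endothelium, whose markers are given above, also expresses it. IRS1, the docking protein of the receptors, averaged 92.2 CPM in PB, 65.5 in TM, 44.0 in HM and 148 in LDM, and INSR, the insulin receptor, 37.3 CPM in PB, 54.1 in TM, 29.1 in HM and 26.2 in LDM. IGFBP5 had 23.1 ± 12.3 CPM in PB, 16.5 ± 7.95 in TM, 16.7 ± 11 in HM and 28.5 ± 16.6 in LDM (adjusted p = 0.159 among the cuts), and HM over LDM passed with the library number as a block (-0.74, adjusted p = 0.0137). ZBED6, a repressor of IGF2 in pigs, was not analysed here.

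**Figure D4:**
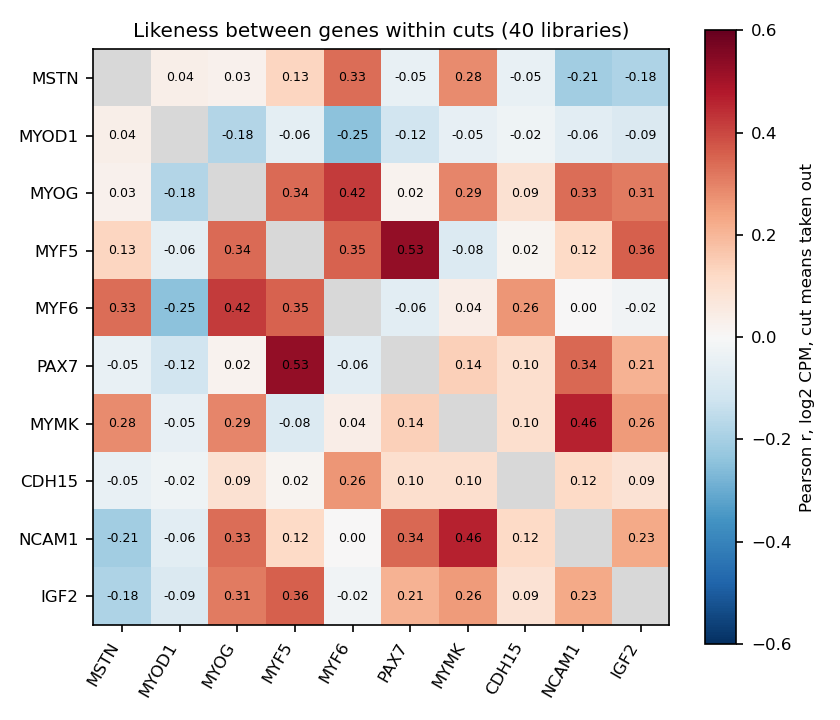
Pearson's r between the 10 genes over 40 libraries, from log2 CPM with each cut's mean taken out. Colour and number give r. The highest value is 0.53 for PAX7 and MYF5, and MYOD1 is at 0.04 or below with each other gene.

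Within cuts the 10 genes varied mostly apart from each other, as the map of likeness shows. The highest r over 40 libraries, with cut means taken out, was 0.53 for PAX7 and MYF5, positive in 4 of 4 cuts, followed by 0.46 for MYMK and NCAM1 and 0.42 for MYOG and MYF6. PAX7, MYF5 and MYMK rest on low counts, and libraries share a scaling, so these values are given as a description. MYOD1 stayed between -0.25 with MYF6 and 0.04 with MSTN.

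Over all genes tested that have a symbol, those most like a given gene within cuts, by the same r, were as follows. For IGF2 they were CASQ2 (0.80), PDZD2 (0.76) and PFKL (0.74), and for CDH15 ADGRA3 (0.73), KLHL22 (0.71) and TLN2 (0.71). MYOD1 was most like NKAIN1 (0.69), SH3RF2 (0.67) and KLF10 (0.66), MYF6 most like FAM53C (0.69), HABP2 (0.69) and ABHD5 (0.67), and MYF5 most like JDP2 (0.69), TRIB2 (0.68) and CLIP2 (0.65). The nearest to MYOG were PPP2R1A (0.67), ITGB6 (0.66) and NFE2L1 (0.66), those to PAX7 SOX8 (0.66), MED14 (0.65) and WDR59 (0.60), and those to MSTN KIF23 (0.64), NEXN (0.63) and LARP1B (0.62). For NCAM1 they were WDFY3 (0.62), TRAM2 (0.61) and TEP1 (0.61), and for MYMK EPRS1 (0.60), XPA (0.55) and SMIM19 (0.54). No member was among the 3 nearest genes of another.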

How the data were processed

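Per the labels' protocols Trizol was used for RNA and a KAPA stranded kit for the libraries. Cutadapt 1.15, HISAT2 2.0.5 and HTSeq 0.9.1 are named, without settings, per the submitters' processing notes. Per the file headers the authors deposited whole-number counts of reads and FPKM values by gene and library. The deposited FPKM equal counts over gene length and library total for 100% of values above 0, within a relative tolerance of 0.001, and serve here only to compare levels between genes.

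The main test of the counts was edgeR 4.0.16 (R 4.3.3) with TMM scaling, filterByExpr by cut and a robust quasi-likelihood model of the 40 libraries whose only term was the cut. Any difference among cuts was tested by an F test and the 6 pairs by contrasts, with Benjamini-Hochberg adjustment over 11713 genes and a threshold of 0.05. SE and 95% intervals come from the fit. Log2 CPM for likeness used a prior count of 2. Libraries of a cut were distinct (lowest chi-square per gene 31.5, genes with at least 20 counts). The fit was tested on simulated data.

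Libraries were placed by title, PB1 included. The labels tie no number to a pig, but same-numbered libraries deviated together more than others did. In HM and LDM all 10 same-numbered pairs did so (r of 0.102 or more). The main fit leaves the number out for each pair of cuts, HM and LDM included, so its values are unpaired. Only the alternative with the library number as a block takes it into account. The genes and gene lists were chosen with earlier results of these data known. Named are the 10 genes, up to 4 more per list by smallest adjusted p of the F test, a few fixed genes whatever their result, and the 3 genes most like each of the 10. Some genes of these rules are not reported here.

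Alternatives were scaling by RLE or upper quartile, mitochondrial genes out before scaling, no filter, at least 1 CPM in 10 libraries, the test of DESeq2 1.42.0, limma-voom (limma 3.58.1) with sample quality weights, the library number as a block, each pair fitted alone, and each of the 40 libraries left out. Leaving out the 4 libraries nearest another cut was added after the data were seen. No sequence was used here.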

Additional observations from a re-analysis of the deposited data

Results flagged for a closer look

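Of 44 groups of 10 libraries examined for a single library far from the rest, 6 held one. Chance gives about 1 in 20 where values are normally spread. CPM and ratios were taken untransformed, so the rate that chance gives here is not known. Each of the 6 was the highest library of its cut. In each the gap to the nearest library took between 0.494 and 0.712 of the whole range of the cut. MSTN in PB8 was at 6.605 CPM, with the next PB library at 3.707. MYOD1 in HM5 was at 66.07 CPM (next 37.12) and MYOG in HM5 at 906 CPM (next 364.2). MYMK in HM4 was at 1.845 CPM, with the next HM library at 0.9256, and NCAM1 in PB2 was at 20.77 CPM (next 9.044). The count of MYOG over that of MYOD1 in TM5 was 72.14, with the next TM library at 38.26.

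HM5 combined the highest MYOD1 and MYOG of all 40 libraries with the lowest PAX7 (4.01 CPM) and CDH15 (8.90 CPM) of its cut. Its IRS1, at 11.3 CPM, was 0.273 of the HM median, and its MYH7 was 1.21 times that median. PB8 had the highest MSTN and MYF5 of PB and the lowest MYOG, NCAM1 and IGF2, and none of its reads fell on MYMK. The same library had 9.57 times the PB median of ACTC1, 7.57 times that of BOC and 3.81 times that of MET, while NOTCH3 stood at 0.145 of the median. Its summed leukocyte markers were 206 CPM, against a PB median of 32.3. HM6 had the lowest MSTN, MYOG, MYF6 and MYMK of its cut and the highest summed smooth muscle markers, 5491 CPM against an HM median of 769. The part of these other cells in the member values was not tested.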

How the results depend on the processing

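No result that passed turned its direction under any alternative, while 5 results of the 10 genes that did not pass (adjusted p of 0.675 or more) changed sign under some setting, where their adjusted p was 0.79 or more. Scaling moved the median log2 change of all genes by less than 0.1 in each pair, and split the calls of a pair differently: with mitochondrial genes out, 71.4% of PB over TM calls and 63.1% of PB over HM calls were higher, against 58.1% and 49.0%, and with upper-quartile scaling 47.3% in PB over TM and 56.9% in TM over LDM, against 45.7% for the last. The difference of MYF6 among the cuts (adjusted p = 0.0547) passed with RLE (0.0433), mitochondrial genes out (0.035), DESeq2 (0.0247), the replicate block (0.0457) and without any of 17 single libraries (0.0223 to 0.132 over all 40). That of MYOD1 passed with limma-voom (0.0435) and without PB10 (0.0268 to 0.352 over single libraries left out), and that of MYOG failed without HM5 (0.00631 to 0.0976). The 2 calls among the 10 genes in PB over LDM became 1 with RLE, mitochondrial genes out, no filter, the pair alone and without the 4 libraries nearest another cut, 1 with limma-voom, where MYMK and NCAM1 were both lost and MYOD1 gained, and 0 to 3 with single libraries left out. The 1 call in TM over HM became 2 with DESeq2 and 0 to 2 with single libraries left out. All genes called in TM over HM numbered 90, and 199 with DESeq2, 312 with limma-voom, 213 with the replicate block, 206 without the 4 libraries and 52 to 135 with single libraries left out, 52 without TM2 or TM4; the cause was not tested. Same-numbered libraries correlated at -0.128 to 0.510 after cut means were taken out, with medians of 0.191 to 0.285 by pair of cuts against -0.0439 to -0.0285 for other numbers, and 3 to 8 of 10 correlated best with their own number. All 10 exceeded 0.1 in HM and LDM, and 8 or 9 of 10 did in the other pairs of cuts. The main values are unpaired in each pair of cuts. With the library number as a block no call of the 10 genes changed in HM over LDM. In the other pairs the block brought MYOD1 in PB over LDM (0.0349) and MYOG in PB over TM (0.0436) past the threshold and lost no call of the 10 genes. Of the 12 PB calls among the 10 genes, 10 held without PB1. Depth limits MYMK, MSTN and PAX3 most.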

Other observations

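The 10 genes differed in how they varied with MYH7, the myosin of slow fibres, which averaged 26718 CPM in PB, 34616 in TM, 24490 in HM and 9078 in LDM. With cut means taken out, Pearson's r with MYH7 over 40 libraries was 0.62 for IGF2 and -0.32 for MSTN. For IGF2 it was positive in 4 of 4 cuts, from 0.12 in LDM to 0.83 in TM. For MSTN it was negative in 4 of 4, from -0.64 in PB to -0.04 in HM. For MYOG it was 0.42, with 0.74 in PB and -0.35 in LDM. These are descriptions of libraries that share a depth and a scaling.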
